A study of Mus musculus with 2 samples.

Results

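The primary cilium and cystic kidney genes were examined in collecting duct cells of wild-type mice and of mice with a tubular deletion of Gata2, a zinc finger transcription factor gene. They were taken by name alone, as every probe whose gene name on the array begins with Ift, Bbs, Nphp or Pkd followed by a digit, together with Pkhd1, Kif3a, Kif3b, Arl13b, Invs, Ahi1, Cep290, Tmem67, Umod, Cys1 and Bicc1. This gave 41 genes with 70 probes, of 19647 named genes on the array. Of these 41 genes, 37 were measured (detected), meaning that at least 1 probe was well above background on at least 1 array, against 14214 of the named genes. The 37 genes comprised 13 cystic disease genes, 14 genes of the transport machinery, 8 BBS genes, Arl13b and the polycystin homolog Pkd2l2.

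The series holds 1 one-colour array per genotype, both of adult renal collecting duct cells from mice of 8 weeks and mixed sex. They were captured on magnetic beads with DBA, a lectin used to select this epithelium. The wild-type (WT) label names no transgene or floxed allele. The knockout (CKO) label is Gata2flox/-::Pax8-rtTA::Tet-Cre, that is, 1 floxed and 1 null Gata2 allele with a Pax8-driven doxycycline-dependent activator, active in renal tubules, and an inducible Cre. Doxycycline was given for 4 weeks from an age of 4 weeks, and the null allele is present outside the tubules as well, so that its part and the part of the tubular deletion cannot be told apart. Per the design text each genotype had 3 mice, and the array names describe mixtures, but pooling is not stated outright. No difference therefore has a replicate check, and no test or p-value is given.

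The primary cilium is a single non-motile antenna on the apical face of most tubule cells. Intraflagellar transport (IFT) trains driven by kinesin-2 build it, the transition zone gates it, the BBSome moves membrane proteins through it, and polycystins and fibrocystin are found on it. Mutations in its components cause polycystic kidney disease, nephronophthisis and Bardet-Biedl syndrome. In the collecting duct, principal cells carry a primary cilium and intercalated cells generally do not.

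Values are given as relative signal, the processed signal of a probe divided by the 75th percentile of its array, which was 314 for WT and 250.0 for CKO cells. Differences are log2 of the CKO value over the WT value. A gene takes its probe of highest signal. The spot error, as the scanner software gives it, is about 0.20 for a bright probe with both arrays combined. Different probes of 1 gene differed with an SD of 0.27 over 5278 genes, and of 0.22 over the 19 cilium and cystic genes with several probes. All signs are relative to the 75th percentile. When the arrays were set equal on spike-in transcripts instead, every difference between values measured on both arrays was lower by 0.55, the median of all genes moved from 0.02 to −0.52, and all 37 genes lay below 0.

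The 2 Gata2 probes read lower in CKO cells, from a relative signal of 12.5 to 9.69 (−0.37) and from 10.9 to 8.78 (−0.32). They may lie outside the deleted part, so they do not check the genotype. Collecting duct markers were bright on both arrays, with Aqp2, the vasopressin-regulated water channel of principal cells, at 133 in WT and 112 in CKO cells.

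None of the cilium and cystic genes was 2-fold apart between the genotypes. The count was 0 of 37 in either direction, where among all measured genes 1.30% were higher by 2-fold or more in CKO cells and 3.29% were lower by as much, so that the count is near the background for a list of this size. The median difference of the 37 genes was 0.03, beside 0.02 over all genes, with 21 genes higher, 15 lower and 1 without a size. In all, 35 of 37 (94.6%) had values within 0.5 of 0, beside 84.1% of all measured genes. Bbs7 and Invs, detected in WT cells only, enter this count with bounds, so their differences may be larger. Of the 35 genes measured on both arrays, 8 differed by more than their spot error (22.9%, beside 38.4% of all such genes). These were Pkhd1, Nphp4 and Bicc1, lower in CKO cells, and on the higher side among others Pkd2, Ift81, Umod and Bbs10.

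**Figure D1:**
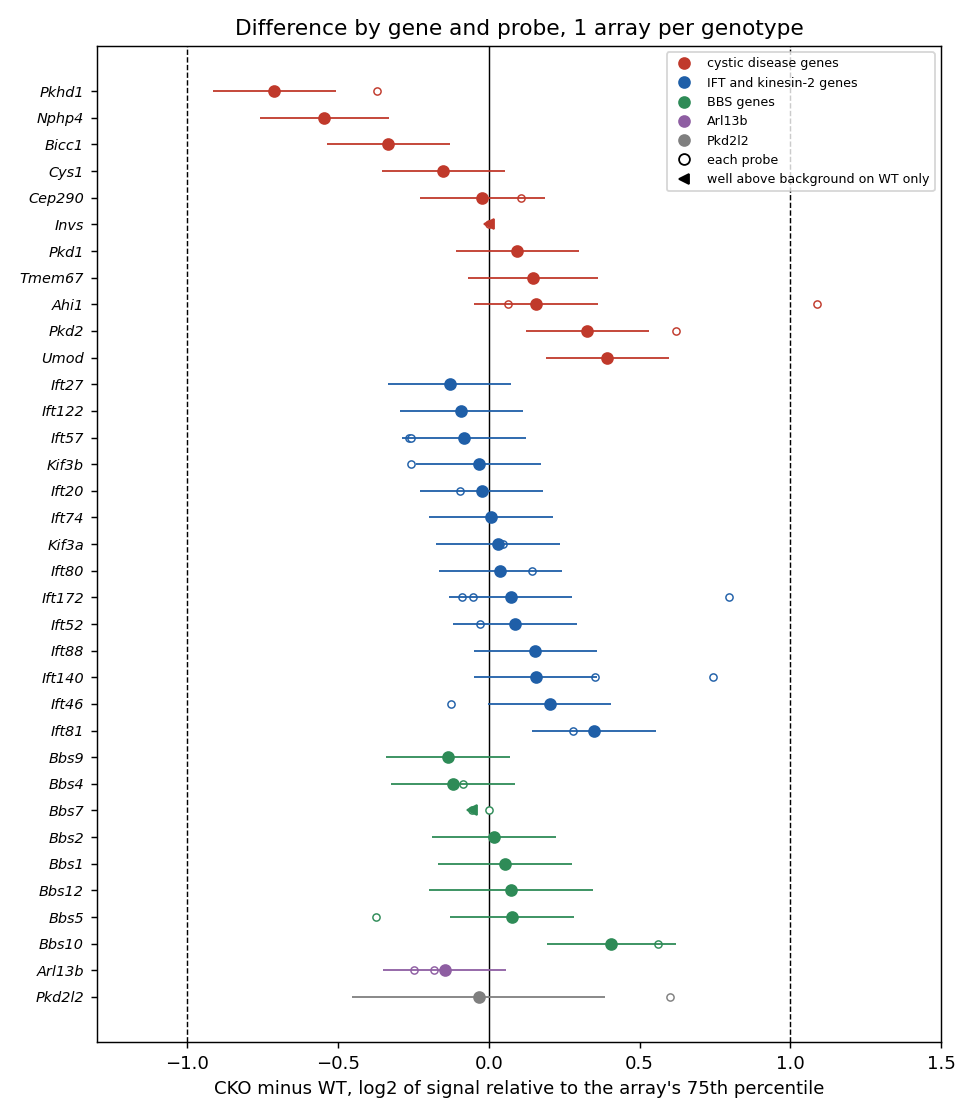
Difference of 35 of the measured genes, CKO minus WT, in log2 of signal relative to the 75th percentile of the array. Filled points are the value of the gene with its spot error, open circles are the other measured probes of that gene, triangles are genes measured in WT cells only, and dashed lines mark 2-fold. The cystic genes run from −0.71 to 0.39 and the IFT and kinesin-2 genes from −0.13 to 0.35, and with spike-in scaling every filled point lies below 0.

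Cystic disease genes were compared with the transport machinery, the motors and trains that build the organelle. The 13 cystic genes had a median of 0.09 and the 14 transport genes a median of 0.03, both below 0 with spike-in scaling, and the transport median also with cyclic loess (−0.02) and with the dimmest probe of each gene (−0.01). The medians differed by 0.06, which is smaller than the SD of 0.27 between probes of 1 gene. Invs, which has no size, enters as 0, and with probes of both arrays only the cystic median was 0.11. Leaving out Umod reduced the gap to 0.01. The cystic genes were spread more widely, with an SD between genes of 0.33 against 0.13 and an interquartile range of 0.31 against 0.17. All measured genes had an SD of 0.48 and an interquartile range of 0.32, so that the transport genes were closer together than the array as a whole by both measures, and the cystic genes by the SD but hardly by the interquartile range. Over genes measured on both arrays, as all 14 transport genes were, the SD was 0.45 and the interquartile range 0.31. Spot error is larger for dim probes, and the spreads were not compared at matched brightness. No test stands behind this difference in spread, because genes are not replicates.

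The polycystins form the receptor and channel of the cilium membrane. Pkd1, which encodes the large receptor-like polycystin-1, read 2.41 in WT and 2.57 in CKO cells, a difference of 0.09 that is within the spot error. Pkd2, which encodes the cation channel polycystin-2, read 6.95 in WT and 8.72 in CKO cells, 125% of WT. Its difference was 0.33, and a dimmer probe gave 0.62, with readings of 0.803 and 1.23. Both Pkd2 probes were thus higher in CKO cells, and without spike-in scaling the gene stayed between 0.25 and 0.62 in every processing tried. The dimmer probe is shown because it carries the larger of the Pkd2 differences. It lies on the plus strand of chromosome 5, at chr5:104932529-104932588 of mm9.
Pkd2 probe: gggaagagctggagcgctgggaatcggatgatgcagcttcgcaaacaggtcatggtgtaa

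Of the homologs, Pkd1l1, Pkd1l2, Pkd1l3 and Pkd2l1 were well above background on neither array. Pkd2l2 was dim, at 0.0596 in WT and 0.0583 in CKO cells (−0.03). Another probe of Pkd2l2 was detected in CKO cells only, at least 1.52-fold higher.

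Pkhd1, Bicc1 and Cys1, each the gene of a recessive cystic kidney model or disease, were all lower in CKO cells. Pkhd1 encodes fibrocystin, the membrane protein mutated in autosomal recessive polycystic kidney disease. Its relative signal was 10.5 in WT and 6.42 in CKO cells, 61.1% of WT. The difference of −0.71 was the lowest of the 37 genes and exceeded the spot error of 0.20. The other probe read 2.34 in WT and 1.81 in CKO cells, a difference of −0.37 in the same direction. Over all processing alternatives Pkhd1 stayed between −1.26 and −0.37. The second probe is printed because it gives the smaller Pkhd1 difference, from another place in the gene. It lies on the minus strand of chromosome 1, at chr1:20060520-20060579 of mm9.
Pkhd1 probe: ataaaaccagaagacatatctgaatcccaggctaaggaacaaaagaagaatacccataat

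Bicc1, an RNA-binding protein gene whose loss gives cysts in mice, read 41.9 in WT and 33.3 in CKO cells, 79.4% of WT (−0.33). It was below 0 in every processing tried, from −0.88 to −0.33. Cys1, which encodes cystin, the lipid-anchored cilium protein lost in the cpk mouse, read 11.4 in WT and 10.3 in CKO cells, and its difference of −0.15 was within the spot error.

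The nephronophthisis genes encode proteins of the transition zone and the inversin compartment. Nphp4, which encodes a transition zone protein, read 0.367 in WT and 0.251 in CKO cells, 68.5% of WT (−0.54, spot error 0.21). It rests on 1 probe. With normexp background correction its difference was −0.25, but that correction adds 50 to every signal and so shrinks differences of dim probes. Invs, which encodes inversin, passed the background limit in WT cells only, with raw signals of 14.3 and 10.8 near the detection limit of 11.7, and no fold is given.

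The remaining transition zone genes differed by less than their spot error. Cep290, which encodes a large linker of the transition zone, read 0.544 in WT and 0.536 in CKO cells (−0.02), and its other probe gave 0.11. Tmem67, which encodes the membrane protein meckelin, read 0.257 in WT and 0.284 in CKO cells (0.15).

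Ahi1, which encodes jouberin, read 0.770 in WT and 0.858 in CKO cells (0.16), and a second probe differed by 0.07. The remaining Ahi1 probe was dim, with raw signals of 16.7 in WT and 28.2 in CKO cells, and gave 1.09, the single one of 61 probes measured on both arrays that was 2-fold apart. This probe crosses an exon junction, its 60 bases spanning 1705 bases of the genome, and it was designed on another transcript record than the others. It is shown because it alone passed 2-fold, and it lies on the plus strand of chromosome 10, at chr10:20683659-20685363 of mm9.
Ahi1 junction probe: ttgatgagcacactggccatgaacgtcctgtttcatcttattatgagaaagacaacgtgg

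Umod encodes uromodulin, the abundant urinary protein of the thick ascending limb, where it is also found on cilia. It read 26.8 in WT and 35.2 in CKO cells, 131% of WT (0.39, 1 probe, 0.33 to 0.39 without spike-in scaling). Thick ascending limb markers pointed in both directions beside it. Of 15 measured genes of that segment, 10 were higher and 5 lower, with a median of 0.26. Cldn16, a claudin gene of paracellular cation transport, had a difference of 0.98 on 1 probe. It gave 0.57 with normexp correction and 0.44 with spike-in scaling. The defining cotransporter gene Slc12a1 read 17.6 in WT and 16.6 in CKO cells (−0.09), with 0.47 on its other probe. The summed relative signal of the list was 185 in WT and 149 in CKO cells. The potassium channel gene Kcnj1, which principal cells express too, carried that drop, from 126 to 90.7, and the other genes summed to 58.5 in WT and 58.0 in CKO cells. None of the defining markers was at 0, and their part in the Umod reading was not tested.

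**Figure D2:**
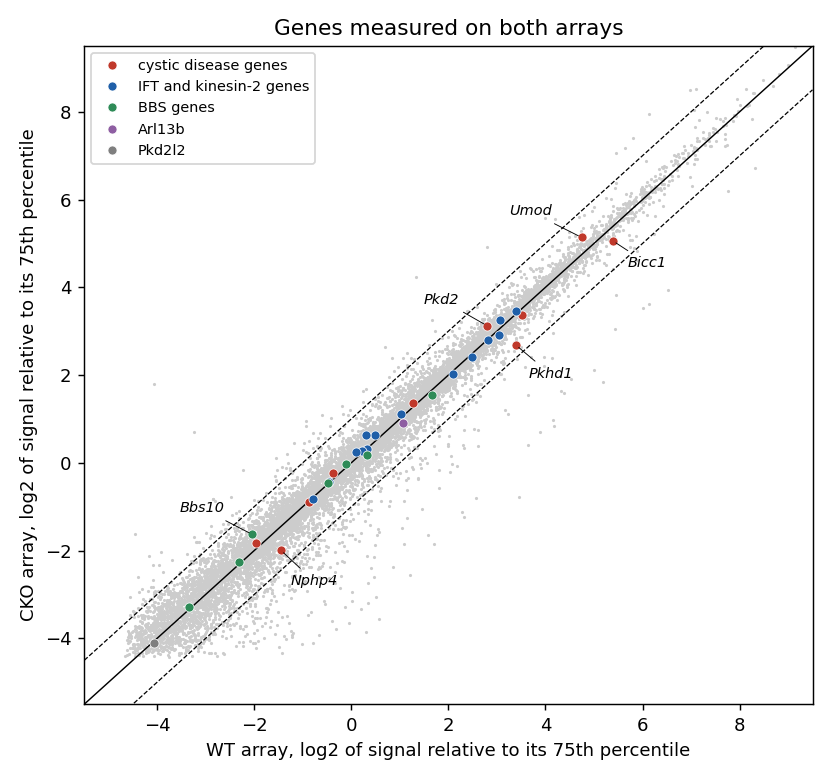
Log2 relative signal on the WT array (horizontal) and on the CKO array (vertical) for each named gene measured on both arrays, with the cilium and cystic genes named in the text in colour, the line of equality solid and 2-fold dashed. All coloured points lie between the dashed lines, with Pkhd1 (10.5 against 6.42) and Nphp4 (0.367 against 0.251) the farthest below the line of equality.

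The transport machinery stayed close to equality. The IFT-B complex carries cargo towards the cilium tip. Of its subunits, 10 that the name rule takes were measured, 7 higher and 3 lower, with a median of 0.06. Subunits under other names in the files are not in this count and lay on both sides of 0, such as Ttc30b (0.33) and Ift22 (−0.25). Ift81, a tubulin-binding subunit of the IFT-B core, was the farthest, at 1.23 in WT and 1.56 in CKO cells. Its difference was 0.35 and its other probe gave 0.28, and without spike-in scaling it stayed between these values. Its brighter probe is shown as the largest transport difference, on the minus strand at chr5:123009165-123009224 of mm9.
Ift81 probe: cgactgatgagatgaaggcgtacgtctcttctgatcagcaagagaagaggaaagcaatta

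Ift74, the direct partner of Ift81 in the core, read 1.24 in WT and 1.25 in CKO cells (0.01). Ift88, the gene disrupted in the Oak Ridge polycystic kidney mouse, read 1.07 and 1.19 (0.16). Ift46 read 8.35 and 9.61 (0.20), but its second probe gave −0.12. The differences of these subunits ranged from near 0 to about the size of the spot error.

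Ift52, another core subunit, read 2.05 in WT and 2.17 in CKO cells (0.09). Ift27, a small GTPase of IFT-B, read 8.30 and 7.58 (−0.13). Ift20, which also acts at the Golgi, read 7.03 and 6.92 (−0.02). Each was within its spot error.

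Ift57 read 4.30 in WT and 4.06 in CKO cells (−0.08), while its other probes both gave −0.26. Ift80 read 1.17 and 1.20 (0.04). Ift172, the largest IFT-B subunit, read 10.5 and 11.0 (0.07), but its 4 probes ranged from −0.09 to 0.80, and the value of 0.80 came from the dimmest of them. Where probes disagreed, the extreme value thus came from a dim probe for Ift172, as for Ahi1.

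The IFT-A complex returns trains to the cell body and admits membrane cargo. The name rule takes only Ift122 and Ift140 of it, and its other subunits on the array carry other names in the files. Ift122 read 5.64 in WT and 5.29 in CKO cells (−0.09). Ift140 read 1.40 and 1.56 (0.16), and its other probes gave 0.35 and 0.74. The kinesin-2 motor subunits Kif3a and Kif3b, which drive outward transport, read 0.723 against 0.738 (0.03) and 0.578 against 0.565 (−0.03). The other Kif3b probe gave −0.26.

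The 6 measured BBSome subunits that the name rule takes divided evenly, with 3 higher and 3 lower and a median of −0.02. The subunit genes Ttc8 (0.09) and Bbip1 (0.02) carry other names and are not in this count. They were counted with the other transport and motor genes, and both read slightly higher in CKO cells. Bbs9 read 1.25 in WT and 1.13 in CKO cells (−0.14), and Bbs4 read 3.16 and 2.91 (−0.12). Bbs2 read 0.714 and 0.723 (0.02), and Bbs1 read 0.201 and 0.209 (0.05). Bbs5, the lipid-binding subunit, read 0.930 and 0.982 (0.08), but its other probe gave −0.37. Bbs7 was detected in WT cells only, at least 1.04-fold higher there.

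Bbs10 and Bbs12 encode chaperonin-like proteins that help to assemble the BBSome. Bbs10 read 0.244 in WT and 0.323 in CKO cells, 133% of WT (0.41, the highest of the 37 genes). Its other probe gave 0.56, but the 2 probes share 40 of 60 bases and are not independent readings. Bbs12 read 0.0980 and 0.103 (0.07). The 8 BBS genes had a median of 0.04, which was −0.04 with cyclic loess, −0.51 with spike-in scaling and also below 0 when the probes of a gene were averaged.

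Arl13b, the small GTPase of the cilium membrane mutated in Joubert syndrome, read 2.09 in WT and 1.89 in CKO cells (−0.15). The difference was within the spot error, but its 3 probes were all lower, from −0.25 to −0.15.

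Of the 19 genes with several probes measured, 14 had all probes on 1 side of 0 and 5 had probes on both sides. Bbs5, Cep290, Ift172, Ift46 and Ift52 were the genes with probes on both sides. The remaining 18 measured genes rest on 1 probe or on a bound.

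The wider cilium machinery was read against the same share of all genes, 1.30% at least 2-fold higher and 3.29% lower, by which a list of its size holds few such genes. Of 28 other transport and motor genes, 12 were higher and 16 lower, with a median of −0.01 and none 2-fold apart. Dync2li1, a light intermediate chain of the retrograde motor dynein-2, was the lowest at −0.54, and Ttc30b, an IFT-B subunit gene, the highest at 0.33. Of 29 transition zone and basal body genes, 12 were higher and 17 lower, with a median of −0.04 and none 2-fold apart. Dzip1, a basal body gene, was lowest at −0.92, but it was dim and gave −0.01 with normexp correction. Alms1, the Alström syndrome gene, read 0.50 on one probe and −0.33 on another.

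Other cystic disease and cyst growth genes were split 16 to 16, with a median of 0.02 over 32 genes. Ren1, the renin gene, was detected in CKO cells only, at least 4.83-fold higher, while its other probe gave at least 0.44 on the log2 scale. With normexp correction Ren1 differed by 0.79 and was no longer 2-fold apart. It is nearly identical to Ren2 and the probes may read both. The growth regulator Myc was lower by just under 2-fold, from 1.04 in WT to 0.519 in CKO cells, on its brightest probe. Its 3 probes ranged up to −0.51, and with normexp correction it differed by −0.74.

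Among ciliogenesis transcription factors, 6 of 8 were measured, 3 higher and 2 lower. Foxj1, the master regulator of motile cilia, read 0.263 in WT and 0.0599 in CKO cells, a difference of −2.13 with a spot error of 0.32 on 1 probe, and −0.55 with normexp correction. Rfx3, an X-box binding factor, read 0.53 on its brightest probe and as low as −0.39 on another of its 4 probes. Of 16 measured motile cilium genes, 9 were higher and 7 lower, with a median of 0.04. Tekt1, a tektin of motile axonemes, was 2-fold lower (−1.04, and −0.15 with normexp correction).

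The hedgehog pathway signals through the primary cilium. Of 12 measured pathway genes, 5 were higher and 7 lower, with a median of −0.07. Gli3, a transcription factor that mainly represses the targets of the pathway, was detected in WT cells only, at least 2.73-fold higher there, but differed by −0.14 with normexp correction. The 2-fold readings of Foxj1, Tekt1 and Gli3 were all on dim probes and none passed 2-fold with normexp correction. That correction adds 50 to raw signals that ran from 8.40 to 82.6 for these genes, Dzip1 and Ren1. It shrinks such differences by construction, so it cannot decide whether these readings hold.

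**Figure D3:**
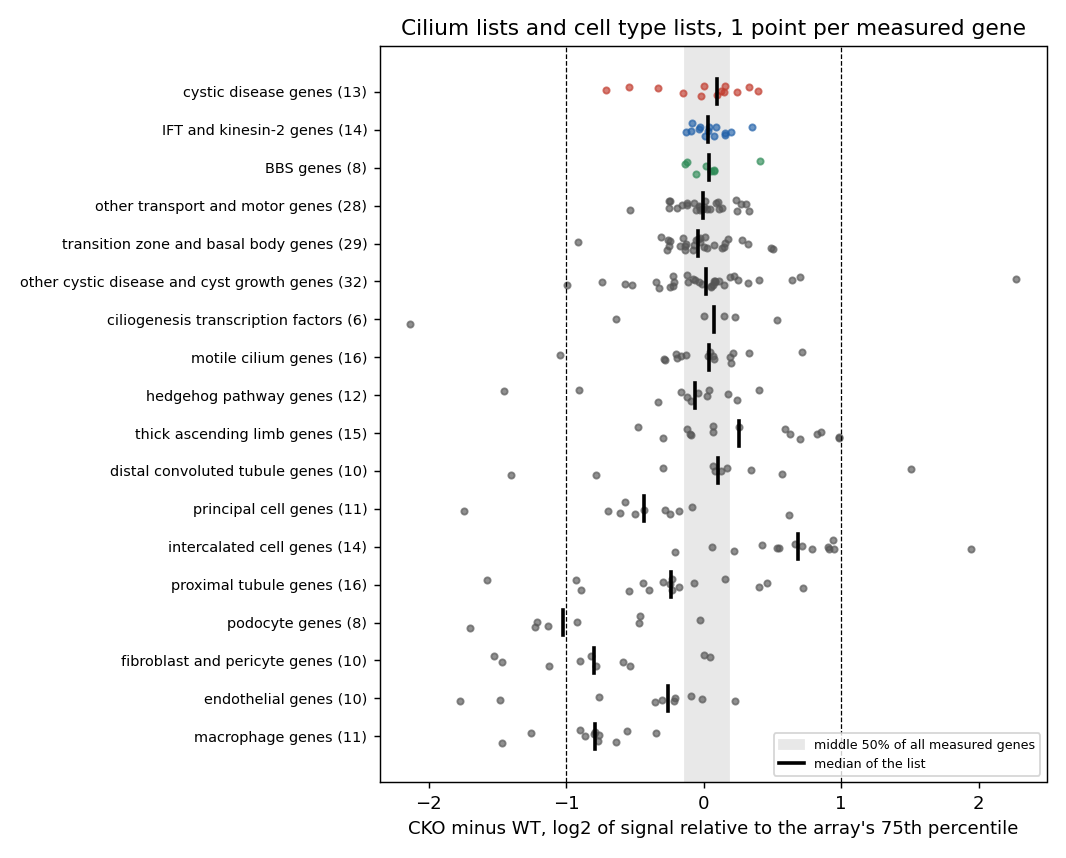
Difference of each measured gene, CKO minus WT in log2, for the cilium lists and for marker lists of kidney cell types, with the median of each list as a bar, the middle 50% of all measured genes (−0.13 to 0.19) shaded and 2-fold dashed. The medians of the cilium and cystic lists lie within the shading, while of the cell type medians that of the distal convoluted tubule alone lies within it. With spike-in scaling all points measured on both arrays are lower by 0.55.

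Cell type markers differed more than the cilium genes on the same arrays. Principal cell genes were lower in 10 of 11 (median −0.43), led by Stc1, a secreted glycoprotein gene, at −1.74, and their summed relative signal was 1052 in WT and 888 in CKO cells. Intercalated cell genes were higher in 13 of 14 (median 0.69), led by Atp6v1b1, a proton pump subunit gene, at 1.94, and their sum was 424 in WT and 516 in CKO cells. Distal convoluted tubule genes had a median of 0.11, with Klk1 at 1.51 and Pvalb at −1.40. Pvalb rests on 1 dim probe, with raw signals of 41.4 in WT and 12.5 in CKO cells, the latter near the detection limit. In RNA of a cell population, fewer cells of a type and less RNA per cell cannot be told apart. Whether the shift in these markers has a part in the lower readings of Pkhd1, Bicc1 or Arl13b was not tested.

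Markers of podocytes, macrophages, fibroblasts and pericytes, endothelium and proximal tubule were mostly lower in CKO cells. Those of the other segments outside the collecting duct were mostly higher, in 10 of 15 thick ascending limb and 7 of 10 distal convoluted tubule genes. Podocyte genes were lower in 8 of 8 (median −1.02; Wt1 −1.70, Nphs1 −1.23, Podxl −1.21 and Clic5 −1.13), with a sum of 5.076 in WT and 3.102 in CKO cells. The other Podxl probe gave 0.22 and the 3 Clic5 probes ranged from −1.25 to 0, while Wt1 and Nphs1 rest on 1 probe each. Macrophage genes were lower in 11 of 11 (median −0.79; Itgam −1.47 and Lyz2 −1.25), with a sum of 111 and 55.9. Fibroblast and pericyte genes were lower in 8 of 10 (median −0.80; Vim −1.53, Pdgfrb −1.47 and Fbln5 −1.13). Endothelial genes were lower in 9 of 10 (median −0.26; Vwf −1.77 and Ptprb −1.48), with Vwf near the detection limit in CKO cells at a raw signal of 14.7. Proximal tubule genes were lower in 12 of 16 and higher in 4 (median −0.24). Lrp2 was the lowest of them at −1.58, but its 4 probes ranged up to −0.26. Some of these cells, such as fibroblasts and proximal tubule cells, carry primary cilia too, and their part in the cilium readings was not tested.

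The start sites of the cilium and cystic genes were searched for motifs because RFX factors regulate ciliary genes through the X-box, an imperfect inverted repeat, and because Gata2 is a GATA factor. RefSeq promoters of GRCm38.p6, from 250 bases before to 50 bases after the start site, were matched for 32 of the 41 genes and searched on both strands. The X-box was present in 3 of 32 (9.38%, namely Ahi1, Bbs1 and Ift57), beside 1.75% of 27025 promoters. The matches of Ahi1 and Bbs1 begin after the start site, at 21 and 1 bases. Its arm GTTGCC, which overlaps the X-box, was present in 13 of 32 (40.6%), beside 14.1%, and in 6 of 11 transport genes. The GATA motif AGATAA was present in 3 of 32 (9.38%), beside 12.7%, and TGATAA in 1 of 32 (3.12%), beside 10.4%. These are matches of letters and not binding sites.

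The Ift57 promoter is printed because it alone held X-boxes before the start site, a pair beginning 87 and 60 bases upstream. The stretch lies on the plus strand at chr16:49699187-49699266 of GRCm38.p6, and capitals mark the X-boxes.
Ift57 promoter: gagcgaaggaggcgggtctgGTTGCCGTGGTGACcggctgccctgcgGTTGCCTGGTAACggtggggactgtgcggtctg

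**Figure D4:**
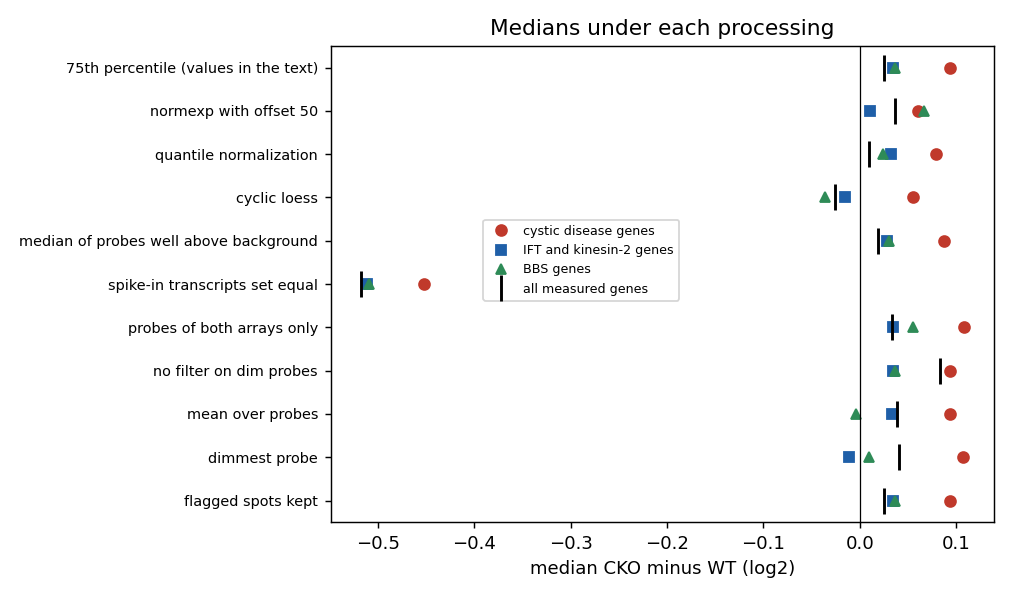
Median difference, CKO minus WT in log2, of the cystic genes, the IFT and kinesin-2 genes, the BBS genes and all measured genes under each processing. The cystic median lies above the transport median in every one, by 0.05 to 0.12, while spike-in scaling moves all of them to between −0.52 and −0.45.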

How the data were processed

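Per the file headers, each deposited file holds spot intensity on a linear scale, extracted and background-subtracted with Agilent Feature Extraction 10.7.3.1, with probes placed on mm9. How the authors normalized between arrays is not given here. Of 45018 spots per array, 66 (WT) and 73 (CKO) flagged spots were left out and 0 were saturated. Processed signals were divided by the 75th percentile over non-control probes and taken as log2, and spots of a probe were averaged. A probe counted as measured where a share of 0.5 or more of its spots was well above background, which held for 64.1% of WT and 62.4% of CKO spots. Where a gene was measured on 1 array only, its difference is a bound against the lowest signal well above background, given as "at least".

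RefSeq names were found for 26876 of 41174 probes and equalled the file's name for 66 of the 70 probes examined; the other 4 had none. Ift22 (−0.25) and Ift43 (0.03) carry older names in the files and were not included. Exon or UTR placement of probes was not analysed here. Calls use 2-fold. The genes named are those of the name rule and Gata2. Of each other list, the members at least 2-fold apart (at most 4) or else the 2 farthest are named. Aqp2, Slc12a1, Kcnj1, Myc, Rfx3, Ttc8 and Bbip1 are named besides, chosen after their values were seen. Some genes that the rule takes are not reported here. The members and lists were chosen with earlier results of these data known. Alternatives were normexp (offset 50), cyclic loess, quantile normalization, median and spike-in scaling, 2 filters, 2 probe rules, flagged spots kept, and 4 changes of list membership. The steps were tested on simulated data. Computations used Python 3.11.15 (pandas 2.3.3, numpy 2.4.6, matplotlib 3.10.9) and R 4.3.3 (limma 3.58.1).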

Additional observations from a re-analysis of the deposited data

How the results depend on the processing

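Setting the arrays equal on 8 of 10 spike-in transcripts moved the cystic median to −0.45, the transport median to −0.51 and the BBS median to −0.51, and brought 2 genes past 2-fold lower (Pkhd1 −1.26 and Nphp4 −1.09), with 43 genes higher and 1360 lower on the array against 185 and 468. Taking the dimmest probe brought 1 gene past 2-fold higher (Ahi1, 1.09). No median moved by more than its probe spread under the other alternatives. The gap between cystic and transport medians stayed above 0 in all of them, and was 0.01 without Umod or with Arl13b. Array-wide calls were 55 higher and 174 lower with normexp, and 636 and 890 with no filter on dim probes. Of 368 single gene values, 47 moved by more than the SD between probes, 37 of them under spike-in scaling. Raw signals near 11.7, the lowest well above background, limit Invs, Bbs7 and Pkd2l2. No paired analysis was possible because there is 1 array per genotype.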

Other observations

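Probes of 1 gene read differently by brightness. Where both probes were measured on both arrays, the dimmer probe had the higher CKO minus WT difference in 11 of 19 cilium and cystic genes (median gap 0.03) and in 56.3% of 5278 genes (median gap 0.04). With signals at least 4-fold apart it was 7 of 10 cilium and cystic genes (median gap 0.15) and 60.7% of 2718 genes (median gap 0.07). With normexp background correction the shares of all genes were 68.6% (median gap 0.09) and 76.9% of 1943 genes (median gap 0.15), and those of the cilium and cystic genes 11 of 19 (0.08) and 5 of 6 (0.17).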
